A study of Mus musculus with 7 samples.

Results

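The genes described here encode the calcium switch and the actin of the striated muscle thin filament: the troponins Tnnt1, Tnnt2, Tnnt3, Tnni1, Tnni2, Tnnc1 and Tnnc2 and the sarcomeric actins Acta1 and Actc1. They were chosen by gene symbol and made up 9 of the 34947 gene names and 11 of the 55681 probes on the array. Troponin is a complex of a calcium-binding subunit (troponin C), an inhibitory subunit (troponin I) and a subunit that holds the complex on tropomyosin (troponin T). When calcium binds troponin C, the inhibition by troponin I is released and myosin can pull on the actin filament. Troponins I and T exist in forms of slow fibres, fast fibres and heart, while slow fibres and heart share a form of troponin C. The heart forms Tnnt2 and Actc1 are also made in embryonic and regenerating skeletal muscle before the adult forms take over, so in skeletal muscle they mark early differentiation.

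Cells of 7 populations from mice were profiled on Agilent arrays with 60-base probes read in 1 colour, 1 array per population. The title concerns how myogenic precursors of the dermis descend from satellite cells, which regenerate skeletal muscle. Sdc4 encodes syndecan-4, a cell surface proteoglycan of satellite cells. Of the Sdc4+ arrays, 1 carried Myf5SOR+ cells from B6.129S4-Myf5tm3(cre)Sor /J mice, in which Cre is driven from the myogenic gene Myf5, 1 carried Cspg4- cells from B6,FVB-Tg(Cspg4-cre)1Akik/J mice, which have a Cre transgene under Cspg4 (NG2, a pericyte proteoglycan), and 1 carried cells of outbred Crl:CD1(ICR) mice. The 3 Sdc4- arrays carried B195AP+ cells from B195AP-Cre mice (the driver is not named in the labels), Cspg4- cells of the Cspg4-cre mice, and CD1 cells. Cspg4+ cells of the Cspg4-cre mice made up the last array, for which no Sdc4 status is given. Per the labels, 8 to 10 animals and 10 to 200 ng of RNA stand behind each population. The labels used here give no age, tissue or sorting scheme, and name no treatment.

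Some features of the arrays touch every value below. The 3 Sdc4+ arrays lay in row 1 of the slide and the other 4 in row 2, so slide row and Sdc4 label cannot be told apart. A group's SD includes the mouse line, since its 3 arrays differ in it, and the number of arrays limits the precision. Between 45.9% and 57.2% of the non-control spots of an array were well above background. On the B195AP+ array a region of streaks left 8.17% of the bright spots in it over 4-fold from the other arrays, against 0.832% outside, and the spots of Tnnt2, Tnnc1 and Actc1 lay in that region. Among the other genes given below, so did those of Myog, Srf, Vgll2, Myl4, Acta2, Tpm1, Tpm2, Myh7, Chrna1, Mymk, Cox8b and Pdlim3. Sdc4 itself was between 3.79 and 6.35 on the Sdc4+ arrays and between 1.88 and 5.27 on the Sdc4- arrays, on a log2 scale with the 75th percentile of each array at 0, so the groups overlapped for the gene they are named after (difference 1.39, limma adjusted p = 0.728), and its B195AP+ spot lay in the streaked region. Pax7, Pax3 and Myf5, which regulate satellite cells, exceeded background on 0 of the 7 arrays. The satellite cell markers Cdh15, Itga7 and Vcam1 were well above background on all 7. Between Sdc4+ and Sdc4- cells Cdh15 differed by -1.11 without overlap (limma adjusted p = 0.499). Itga7 differed by -0.34 and Vcam1 by 0.57, with overlapping groups. The fibroblast genes Dcn, Col1a2 and Pdgfra were well above background on all 7.

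All 9 genes had a lower mean in the Sdc4+ than in the Sdc4- cells, with log2 differences from -0.98 (Tnnc1) to -4.95 (Actc1) and a median of -3.23 against -0.025 for all 19761 genes tested. No gene on the array reached an adjusted p of 0.05 (0 genes, or 0%, by limma over 3 and 3 arrays, against 1813 at an unadjusted p under 0.05), and the smallest adjusted p among the 9 was 0.429. The 3 arrays of each group did not overlap for 8 of the 9, all but Tnnc1, against 9.26% of all genes tested in this direction. All 8 also had means at least 2-fold apart, which with no overlap was the case for 1.57% of all genes. An unadjusted p under 0.05 with a lower level in Sdc4+ cells was found for 8 of the 9 and for 5.37% of all genes. With normexp background correction and a constant of 50 then added to every spot, the median of the 9 was -1.58. The differences then ran from -0.43 (Tnnc1) to -2.79 (Actc1). In RNA from mixed cells, fewer cells of a type and less RNA per cell cannot be told apart.

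All 9 passed the filter on dim probes, which asked for a signal well above background on 3 or more arrays, and all 11 probes were above background on the 3 Sdc4- arrays and on the Cspg4+ array. On the Sdc4+ arrays 6 of the 9 genes were well above background in Myf5SOR+ cells, 7 in Cspg4- cells and 9 in CD1 cells. In the plot of levels, dim spots are drawn as open circles. No spot of these probes was saturated. As an alternative chosen after seeing the data, every spot below the dimmest signal that stood well above background on its array was raised to that signal, called the floor here. The median difference of the 9 was again -3.23 with the floor, and the values it moved are given beside the measured ones.

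**Figure D1:**
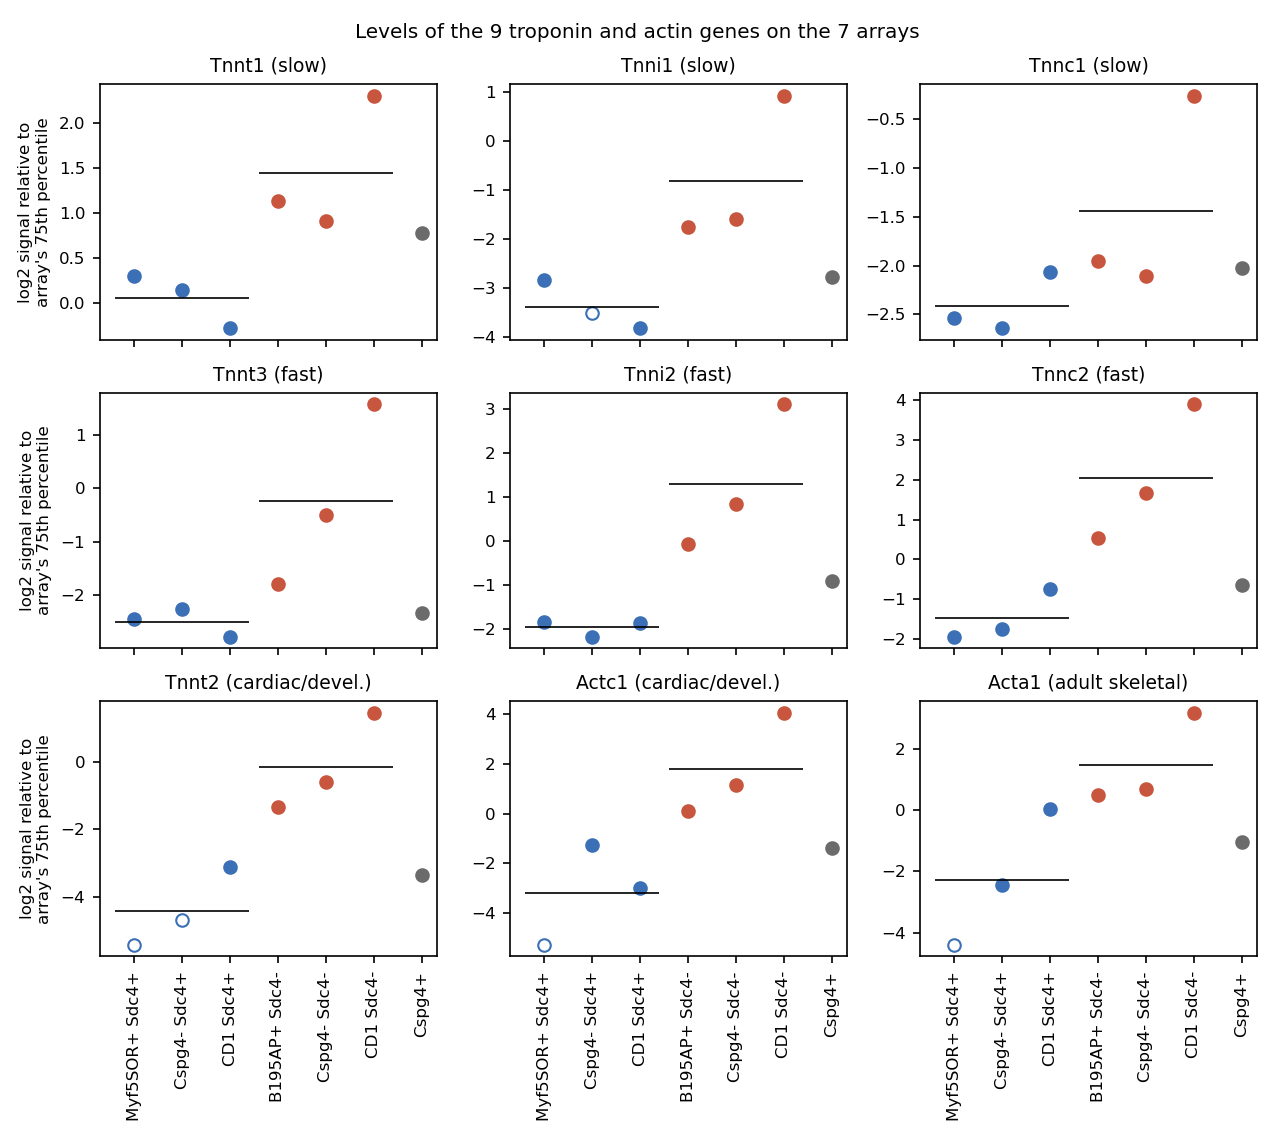
Level of each gene on each of the 7 arrays, as log2 signal relative to the array's 75th percentile (vertical axis, scaled separately per gene), with the slow, fast and heart or developmental (devel.) forms named in the titles. Points are single arrays (blue Sdc4+, red Sdc4-, grey Cspg4+, open where the spot was not well above background) and lines are the means of the 3 arrays of a group; the CD1 Sdc4- array is the highest for all 9 genes, and the groups overlap for Tnnc1 alone.

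Troponin C binds the calcium. The fast form, Tnnc2, had levels of -1.93, -1.75 and -0.75 in Sdc4+ cells (throughout in the order Myf5SOR+, Cspg4- and CD1) and of 0.54, 1.68 and 3.89 in Sdc4- cells (in the order B195AP+, Cspg4- and CD1). Every Sdc4- array was above every Sdc4+ array, and the highest Sdc4+ and lowest Sdc4- values were 1.30 apart. The group means of Tnnc2 were -1.48 ± 0.64 and 2.04 ± 1.70 (SD, n = 3 arrays each), 11.4-fold lower in Sdc4+ cells (log2 difference -3.52, SE 0.83, limma adjusted p = 0.446). Tnnc1, the form shared by slow fibres and heart, was at -2.54, -2.64 and -2.07 on the Sdc4+ arrays and at -1.95, -2.11 and -0.26 on the Sdc4- arrays. Here the CD1 Sdc4+ array was above the Cspg4- Sdc4- array, and only the CD1 Sdc4- array stood clear of the rest. Tnnc1 averaged -2.42 ± 0.31 in Sdc4+ and -1.44 ± 1.02 in Sdc4- cells (SD, n = 3 each), and the difference of -0.98 had an SE of 0.51 (limma adjusted p = 0.612). Without the CD1 Sdc4- array the Tnnc1 difference was -0.39, and without the streaked region it was -1.23.

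The 250 bases before the RefSeq start of these 2 genes (GRCm38.p6, 5′ to 3′ in the direction of transcription) are shown because Tnnc1 had the smallest difference among the 9, while Tnnc2, its fast partner, was well above background on all 7 arrays with a difference of -3.52. Capitals mark E-boxes, the letters CANNTG that myogenic regulators such as Myog and Myod1 bind.
Tnnc2 promoter, chr2:164779735-164779984, minus strand: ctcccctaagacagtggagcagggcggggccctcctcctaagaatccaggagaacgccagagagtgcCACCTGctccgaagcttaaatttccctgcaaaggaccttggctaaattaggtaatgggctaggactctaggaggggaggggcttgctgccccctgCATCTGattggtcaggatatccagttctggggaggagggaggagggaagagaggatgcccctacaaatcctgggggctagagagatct
Tnnc1 promoter, chr14:31208062-31208311, plus strand: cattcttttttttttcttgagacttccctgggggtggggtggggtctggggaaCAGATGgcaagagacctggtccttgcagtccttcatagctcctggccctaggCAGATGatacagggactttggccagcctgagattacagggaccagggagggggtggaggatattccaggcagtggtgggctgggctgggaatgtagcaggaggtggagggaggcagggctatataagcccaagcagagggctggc
Each window holds 2 E-boxes, beginning 183 and 88 bases before the start in Tnnc2 and 197 and 145 bases before it in Tnnc1. The letters CANNTG are common: 66.2% of 32851 windows of that length hold them, on either strand, so their presence in both windows sets neither gene apart.

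Troponin I is the inhibitory subunit. Its fast form, Tnni2, was at -1.84, -2.16 and -1.85 on the Sdc4+ arrays and at -0.07, 0.83 and 3.09 on the Sdc4- arrays. The Sdc4+ values lay close together (SD 0.18), while the Sdc4- values spread over more than 3 log2 units without reaching them. Means were -1.95 ± 0.18 and 1.28 ± 1.63 (SD, n = 3 each), 9.41-fold lower in Sdc4+ cells (log2 difference -3.23, SE 0.76, limma adjusted p = 0.442). The slow form, Tnni1, was at -2.84, -3.51 and -3.83 on the Sdc4+ arrays and at -1.76, -1.59 and 0.92 on the Sdc4- arrays. Its spot was not well above background in Cspg4- Sdc4+ cells, and the groups did not overlap. Tnni1 was 5.99-fold lower in Sdc4+ cells (means -3.39 ± 0.50 and -0.81 ± 1.50, SD, n = 3 each; log2 difference -2.58, SE 0.73, limma adjusted p = 0.469), and -1.72 on the log2 scale without the CD1 Sdc4- array. Tnni3, the heart form and not one of the 9, was between -3.68 and -1.77 on the Sdc4+ and between -2.95 and -2.01 on the Sdc4- arrays, with overlapping groups (log2 difference -0.34, limma adjusted p = 0.859).

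Troponin T anchors the complex on tropomyosin. Its heart and developmental form, Tnnt2, was at -5.42, -4.70 and -3.11 on the Sdc4+ arrays, where only the CD1 spot was well above background, and at -1.34, -0.61 and 1.45 on the Sdc4- arrays. The lowest Sdc4- array was 1.77 above the highest Sdc4+ array. By measured signal Tnnt2 was 18.9-fold lower in Sdc4+ cells (means -4.41 ± 1.18 and -0.16 ± 1.45, SD, n = 3 each; log2 difference -4.24, SE 0.86, limma adjusted p = 0.429). With the floor, which raised the Myf5SOR+ and Cspg4- Sdc4+ spots, Tnnt2 was 9.51-fold lower (-3.25, limma adjusted p = 0.407) and the groups still did not overlap. Without the streaked region the measured difference was -4.83, and with normexp correction it was -1.58.

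The fast form Tnnt3 has 2 probes. The brighter was at -2.44, -2.25 and -2.77 on the Sdc4+ arrays and at -1.78, -0.50 and 1.57 on the Sdc4- arrays. The B195AP+ array was the nearest to the Sdc4+ group, 0.47 above its highest member. The Tnnt3 means were -2.49 ± 0.26 and -0.24 ± 1.69 (SD, n = 3 each), 4.76-fold lower in Sdc4+ cells (log2 difference -2.25, SE 0.79, limma adjusted p = 0.504), and the difference was -1.35 without the CD1 Sdc4- array. The second probe gave -3.47, -2.81 and -3.22 against -2.49, -1.02 and 0.92, a log2 difference of -2.30. The 2 probes share 27 bases and so are not independent measurements.

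The slow form Tnnt1 also has 2 probes. The brighter was at 0.30, 0.15 and -0.28 on the Sdc4+ arrays and at 1.13, 0.91 and 2.30 on the Sdc4- arrays. The groups did not overlap, and the gap between them was 0.61. Its means were 0.055 ± 0.304 and 1.45 ± 0.75 (SD, n = 3 each), 2.62-fold lower in Sdc4+ cells (log2 difference -1.39, SE 0.40, limma adjusted p = 0.469). The dimmer probe was not well above background on any Sdc4+ array (-3.84, -3.37 and -4.24) and was at -1.94, -2.56 and -0.73 on the Sdc4- arrays, at least 3.91-fold lower in Sdc4+ cells (limma adjusted p = 0.428 over all probes). The bound compares the Sdc4- mean with the higher, per Sdc4+ array, of the probe's signal and the dimmest signal that still stood above background.

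The Tnnt2 probe and the second Tnnt3 probe are shown because the 2 genes are paralogs measured over a matching stretch (mm9, 5′ to 3′; both probes span an intron in the genome). Capitals mark the bases that are identical in their best alignment without gaps.
Tnnt2 probe, chr1:137747976-137748288, plus strand: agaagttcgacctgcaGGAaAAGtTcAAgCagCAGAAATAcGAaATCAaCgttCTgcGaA
Tnnt3 probe, chr7:149698500-149700262, plus strand: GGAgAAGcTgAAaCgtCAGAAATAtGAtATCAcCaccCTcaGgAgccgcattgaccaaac
They share 29 of 44 aligned bases, or 65.9%. Whether either probe picks up RNA of the other gene was not tested.

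Sarcomeric actin is the filament that troponin regulates. Actc1, the heart form that embryonic skeletal muscle also uses, was at -5.28, -1.28 and -2.99 on the Sdc4+ arrays, the Myf5SOR+ spot not well above background, and at 0.11, 1.14 and 4.05 on the Sdc4- arrays. The groups were 1.39 apart at their nearest, and the Sdc4+ arrays lay up to 4 log2 units apart among themselves. Actc1 had the largest difference of the 9 genes, with and without the floor. By measured signal it was 31.0-fold lower in Sdc4+ cells (means -3.18 ± 2.01 and 1.77 ± 2.04, SD, n = 3 each; log2 difference -4.95, SE 1.30, limma adjusted p = 0.460), and -5.78 without the streaked region. With the floor, which raised the Myf5SOR+ spot, it was 20.7-fold lower (-4.37). Acta1, the actin of adult skeletal muscle, was at -4.40, -2.43 and 0.02 on the Sdc4+ arrays, the Myf5SOR+ spot again not well above background, and at 0.51, 0.71 and 3.19 on the Sdc4- arrays. The CD1 Sdc4+ array came within 0.49 of the lowest Sdc4- array. The Acta1 means were -2.27 ± 2.21 and 1.47 ± 1.49 (SD, n = 3 each), 13.3-fold lower in Sdc4+ cells (log2 difference -3.74, SE 1.22, limma adjusted p = 0.487), or 10.9-fold lower with the floor (-3.45).

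The Acta1 probe lies in coding sequence, where the actin genes resemble each other closely, and is shown for that reason (mm9, 5′ to 3′).
Acta1 probe, chr8:126416197-126416256, minus strand: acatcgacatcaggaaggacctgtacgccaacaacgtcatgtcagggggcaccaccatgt
How much RNA of other actin genes it binds was not tested. The non-muscle actins Actb and Actg1 had overlapping groups and log2 differences of 0.17 and 0.07 (limma adjusted p = 0.883 and 0.944), and the smooth muscle actin Acta2 a log2 difference of -0.52 (limma adjusted p = 0.766).

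The promoters of Actc1 and Acta1 are shown because the 2 genes had the widest range over the 7 arrays among the 9 (9.33 and 7.58 log2 units, or 7.58 and 6.71 with the floor). They are the 250 bases before the RefSeq start (GRCm38.p6, 5′ to 3′ in the direction of transcription), with capitals marking CArG boxes (the site of serum response factor, encoded by Srf), E-boxes and the letters TATAAA of a TATA box.
Actc1 promoter, chr2:114052876-114053125, minus strand: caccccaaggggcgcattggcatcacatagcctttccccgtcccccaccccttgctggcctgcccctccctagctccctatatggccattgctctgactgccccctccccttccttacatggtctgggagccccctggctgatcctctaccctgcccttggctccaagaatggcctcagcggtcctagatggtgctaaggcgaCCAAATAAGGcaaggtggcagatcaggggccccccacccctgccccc
Acta1 promoter, chr8:123894776-123895025, minus strand: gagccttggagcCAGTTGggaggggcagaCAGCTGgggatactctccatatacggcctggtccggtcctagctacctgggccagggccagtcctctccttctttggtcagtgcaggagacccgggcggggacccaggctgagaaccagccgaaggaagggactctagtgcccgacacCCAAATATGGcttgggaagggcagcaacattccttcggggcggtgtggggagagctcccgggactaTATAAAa
Windows were at hand for 7 of the 9 genes, and of these only Acta1 and Actc1 hold a CArG box, beginning 73 and 47 bases before the start. Of the 32851 windows, 1.47% hold one on either strand. E-boxes occur in 6 of the 7, all but Actc1, TATAAA in Acta1 and Tnnt1 (12.4% of all windows), and a MEF2 site in 0 of the 7 (2.92% of all windows). A match in these letters is a description of the sequence.

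Pairs of isoforms were then compared within each array, so that the question was whether the Sdc4 difference of one form exceeded that of its partner. For Tnnc1 minus Tnnc2 the within-array values were -0.61, -0.89 and -1.31 on the Sdc4+ arrays and -2.50, -3.78 and -4.15 on the Sdc4- arrays. The groups did not overlap, so the fast form had the larger difference, by 2.54 log2 units (exact permutation test, two-sided, p = 0.1, which is the smallest that 3 against 3 arrays can give; 0.25 after Benjamini-Hochberg adjustment over 5 pairs). This excess was 2.84 in CD1 and 2.89 in the Cspg4 line. For Tnnt2 minus Tnnt3 the values were -2.97, -2.44 and -0.34 on the Sdc4+ and 0.44, -0.11 and -0.11 on the Sdc4- arrays. The groups did not overlap here either, and by measured signal the difference of the heart form exceeded that of the fast form by -1.99 (exact permutation p = 0.1, adjusted 0.25). The Tnnt2 spots behind the first 2 of these values were not well above background. With the floor the Sdc4+ values were -1.08, -1.35 and -0.34, still below the Sdc4- arrays, and the excess was -0.999 (exact permutation p = 0.1, adjusted 0.25). The excess was -1.24 with the floor in the Cspg4 line, where the measured value was -2.33, it was -0.23 in CD1 either way, and over both groups it was -0.32 with normexp correction.

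The other 3 pairs had overlapping groups. Tnnt1 minus Tnnt3 differed by 0.86 between Sdc4+ and Sdc4- arrays (exact permutation p = 0.4, adjusted 0.5), 0.23 with the second probes. Tnni1 minus Tnni2 differed by 0.65 (exact permutation p = 0.2, adjusted 0.333). The actin pair, Actc1 minus Acta1, was at -0.88, 1.15 and -3.02 on the Sdc4+ arrays and at -0.40, 0.44 and 0.87 on the Sdc4- arrays, a difference of -1.22 (exact permutation p = 0.5, adjusted 0.5), or -0.92 with the floor, which put both actins of the Myf5SOR+ array at the same value. Its sign depended on the CD1 arrays: the excess was -3.88 in CD1, 0.72 in the Cspg4 line and 0.12 over the groups without both CD1 arrays. A p above 0.05 in this design does not show that 2 forms moved alike.

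**Figure D2:**
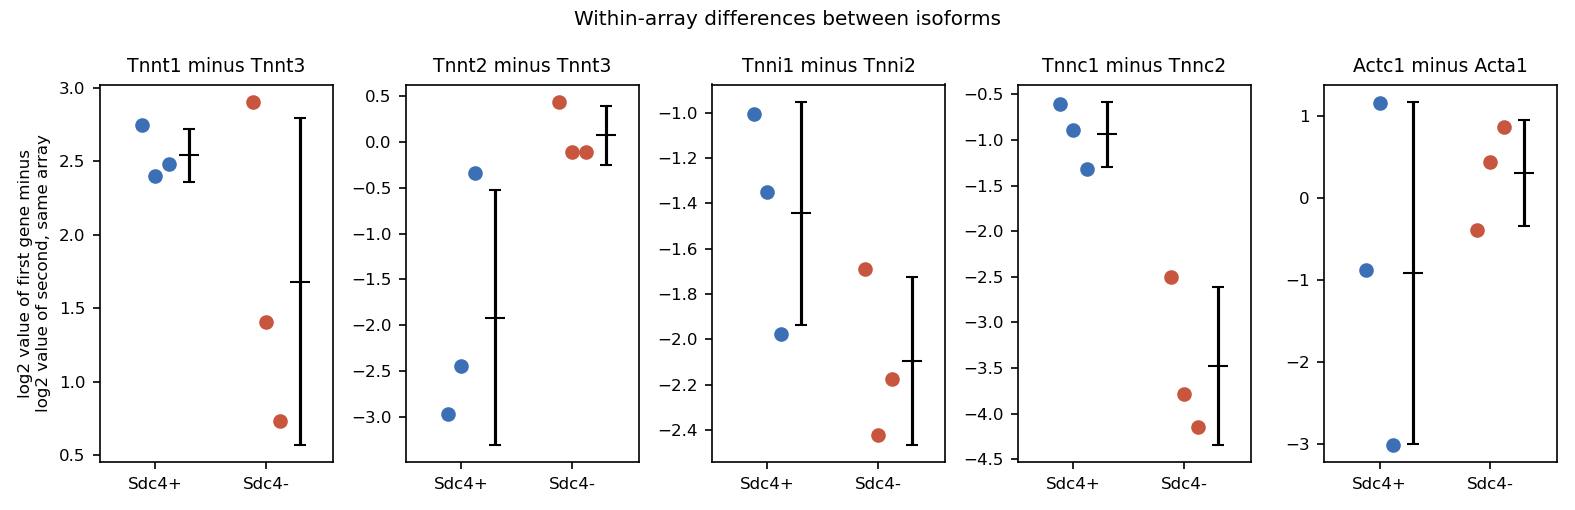
Within-array difference between the log2 values of 2 isoforms (vertical axis, log2 units, scaled separately per pair) on the 3 Sdc4+ (blue) and 3 Sdc4- (red) arrays, with the group mean ± SD beside them. The groups are apart for Tnnt2 minus Tnnt3 and for Tnnc1 minus Tnnc2 (exact permutation p = 0.1 each) and overlap for the other 3 pairs.

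Within a line there was 1 array on each side, so these differences have no replicate check and carry no test. In CD1 all 9 genes were lower in the Sdc4+ cells by at least 2-fold, which 2.65% of all genes were, with a median log2 difference of -4.56 against -0.046 for all genes. Actc1 was 132-fold lower in CD1 Sdc4+ cells (-2.99 against 4.05), Tnni2 differed by -4.94 on the log2 scale and Tnnc1 by -1.81, the smallest. In the Cspg4 line all 9 were lower in Sdc4+ cells, 7 of them by at least 2-fold (3.91% of all genes), with a median of -2.42 against 0.003. The 2 under 2-fold there were the slow forms Tnnt1 (-0.76) and Tnnc1 (-0.53). Tnnt2 was at least 8.00-fold and Tnni1 at least 3.79-fold lower in that line, their Sdc4+ spots not being well above background. Acta1 differed by much the same in both lines (-3.16 in CD1 and -3.14 in the Cspg4 line), and Actc1 did not (-7.05 and -2.42). With normexp correction the medians were -2.87 in CD1 and -1.12 in the Cspg4 line.

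**Figure D3:**
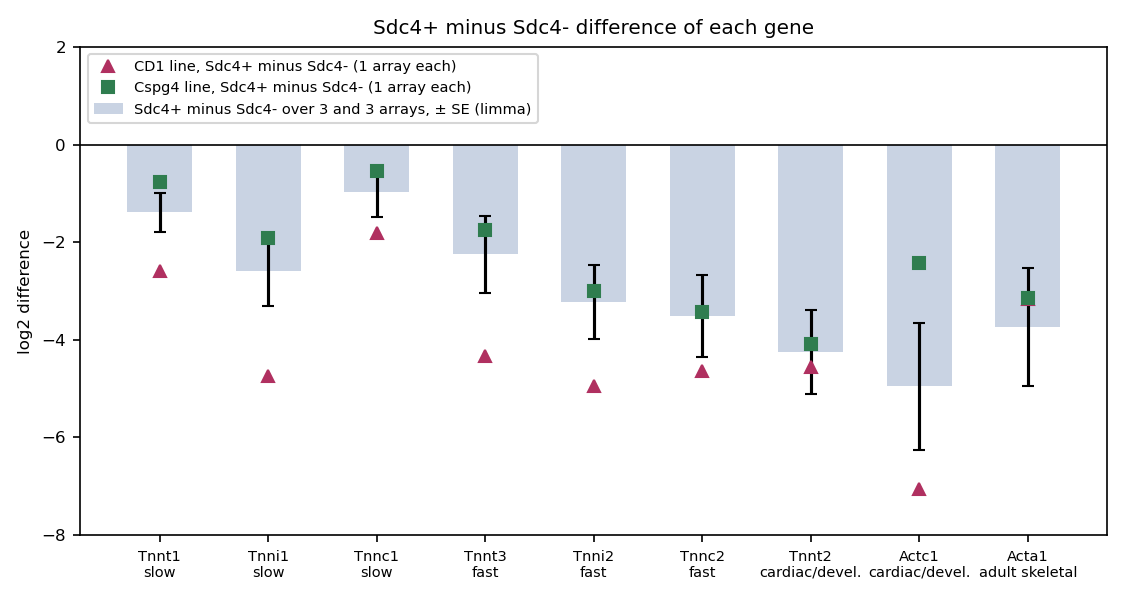
Log2 difference between Sdc4+ and Sdc4- cells for each gene (vertical axis), as the limma estimate over 3 and 3 arrays with its SE (bars) and as the difference within the CD1 line (triangles) and the Cspg4 line (squares), 1 array on each side. All values are below 0, from -0.53 for Tnnc1 in the Cspg4 line to -7.05 for Actc1 in CD1.

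Over the 7 populations the genes followed much the same order. Each gene was centred on its mean, and the average of the 9 was -1.94 in Myf5SOR+ Sdc4+, -1.30 in Cspg4- Sdc4+, -0.97 in CD1 Sdc4+, -0.53 in Cspg4+, 0.48 in B195AP+ Sdc4-, 1.04 in Cspg4- Sdc4- and 3.23 in CD1 Sdc4- cells. CD1 Sdc4- cells had the highest level of all 9 genes, and 7.03% of all genes peaked there. The lowest array varied: it was Myf5SOR+ Sdc4+ for 4 genes (Tnnt2, Tnnc2, Acta1 and Actc1), CD1 Sdc4+ for 3 (Tnnt1, Tnnt3 and Tnni1) and Cspg4- Sdc4+ for 2 (Tnni2 and Tnnc1). In the 3 Sdc4+ populations the centred values of single genes ran from -4.47 to -0.45, from -2.26 to -0.47 and from -2.19 to 0.51. With 1 array per population, the order of the 7 populations was not tested. Pearson's r between 2 genes over the 7 arrays ran from 0.71 (Tnnt1 with Acta1) to 0.98 in the 36 pairs, with a median of 0.89. These correlations share the arrays, the scaling and the 1 CD1 Sdc4- array that was highest for each gene.

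The Cspg4+ cells lay between the 2 Cspg4- populations of the same strain for 6 of the 9 genes, with 1 array each and no test. Tnnt3 and Actc1 lay below both and Tnnc1 above both. The placement depended on the probe. By its second probe Tnnt3 lay between them (-2.16, against -2.81 in Sdc4+ and -1.02 in Sdc4- cells). Tnnt1 lay above both by its second probe (-2.45, against -3.37 and -2.56). By the probes used for the genes, the Cspg4+ levels were 0.77 for Tnnt1, -2.77 for Tnni1, -2.02 for Tnnc1, -2.33 for Tnnt3, -0.91 for Tnni2, -0.65 for Tnnc2, -3.35 for Tnnt2, -1.40 for Actc1 and -1.02 for Acta1. Against Cspg4- Sdc4- cells 8 of the 9 were lower, 7 by at least 2-fold (1.9% of all genes), with a median of -1.74 against 0.070 for all genes. Tnnt2 differed by -2.74, Actc1 by -2.54 and Tnnc2 by -2.32, while Tnnt1 differed by -0.14 and Tnnc1 by 0.09. Against Cspg4- Sdc4+ cells 7 of the 9 were higher, and by measured signal 4 were at least 2-fold higher (6.37% of all genes). Of these Acta1 (1.41), Tnni2 (1.25) and Tnnc2 (1.1) were well above background on both arrays. Tnnt2 (1.35) was not well above background in the Sdc4+ cells and was at least 1.19-fold higher, so with the floor 3 of the 9 were at least 2-fold higher (4.56% of all genes). Tnnt3 differed by -0.07 and Actc1 by -0.12. Both comparisons use the same Cspg4+ array. Scaling the arrays to their medians put the median of all genes at -0.71 in the first comparison and at -0.68 in the second. The median of the 9 was then -2.52 in the first, all 9 being lower, and 0.01 in the second, with 5 of the 9 higher. Without that scaling the median of the 9 in the second comparison was 0.74. It was 0.07 with normexp correction, again with 5 of the 9 higher, 0.41 with quantile normalization and 0.38 in the deposited table of the whole series.

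The thin filament holds many other proteins, and 27 of them and of their folding and actin-binding partners were taken as a list. Of 17 tested, 12 had a lower and 5 a higher mean in Sdc4+ cells, 0 passed the adjusted p (1 lower and 1 higher at an unadjusted p under 0.05 by limma), and the median was -0.165 against -0.025 for all genes. Neb, the giant ruler protein of the skeletal thin filament, was at -3.83, -3.37 and -4.00 on the Sdc4+ and at -1.40, -0.29 and 0.90 on the Sdc4- arrays, 11.1-fold lower in Sdc4+ cells by measured signal (limma adjusted p = 0.429) and 10.3-fold lower with the floor. The next log2 differences by measured size were -0.85 for Lmod3, which nucleates actin filaments in skeletal muscle, -0.60 for Klhl40, which stabilises Lmod3 and Neb (-0.27 with the floor), and -0.52 for Acta2. Capzb, the barbed-end capping subunit, had a log2 difference of 0.44. The genes of the sarcomeric tropomyosins, Tpm1, Tpm2 and Tpm3, were well above background on all 7 arrays, with log2 differences of -0.14, -0.36 and -0.05 and overlapping groups. These genes also make non-muscle tropomyosins, and their values are given per gene, so muscle and non-muscle forms cannot be told apart. The summed level of the list was 740 to 1065 on the Sdc4+ arrays, 826 to 981 on the Sdc4- arrays and 936 on the Cspg4+ array, in multiples of each array's 75th percentile.

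Of 18 genes that regulate sarcomeric actin and troponin genes, 14 were tested: 8 had a lower and 6 a higher mean in Sdc4+ cells, 0 passed the adjusted p (1 at an unadjusted p under 0.05), with a median of -0.181. Myog, the regulator that starts terminal muscle differentiation, was at -5.71, -2.68 and -4.06 on the Sdc4+ and at -1.72, -1.62 and 0.42 on the Sdc4- arrays (log2 difference -3.17, limma adjusted p = 0.469, or -2.45 with the floor). Its groups did not overlap. In Cspg4+ cells Myog was at -5.22, within the range of the Sdc4+ arrays. Vgll2, a muscle cofactor of TEAD factors, was not well above background on any Sdc4+ array, was at least 1.36-fold lower there and had overlapping groups. Srf, whose product binds CArG boxes, was between 1.26 and 2.07 on all 7 arrays (log2 difference 0.11, limma adjusted p = 0.918). Myod1 was well above background in CD1 Sdc4- cells alone.

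Markers of muscle stages and of other cell types were read beside the 9 genes; their part in the differences was not tested. Of the embryonic and regenerating muscle markers 7 of 8 were tested, all 7 with a lower mean in Sdc4+ cells and a median of -3.24, or -2.45 with the floor. By limma 0 passed the adjusted p and 5 had an unadjusted p under 0.05, against 5.37% of all genes in this direction. Of the 5, Mybph was above background on 0 of the 3 Sdc4+ arrays and passed the filter through the other arrays, so it had to differ. Myh8 and Chrnd had 1 Sdc4+ spot of 3 well above background. Myh3, the embryonic myosin, had 1 Sdc4+ spot of 3 well above background and differed by -6.61, or by -5.67 with the floor. Chrna1 and Mymk had overlapping groups, with log2 differences of -0.62 and -1.196 (limma adjusted p = 0.81 and 0.731). The summed level of the list was 2.65 to 8.45 on the Sdc4+ arrays, 6.81 to 43.4 on the Sdc4- arrays and 11.4 in Cspg4+ cells. Chrna1 was the brightest of the list on every array but CD1 Sdc4-. It made up most of the sum on the Sdc4+ arrays and in Cspg4+ cells. Of 8 adult fibre markers 3 were tested, and the sums were 0.634 to 0.829, 1.19 to 5.52 and 1.18. Pvalb and Actn3 were well above background on all 7 arrays, and Pvalb was the brightest of the list on each Sdc4+ array. Pvalb differed by -0.74 without overlap and Actn3 by -1.01 with overlapping groups (limma adjusted p = 0.475 and 0.713). Among the others Myh2 and Mylpf were above background on 0 of the 7 arrays, Ckm, Myh4 and Casq1 on 1 array (CD1 Sdc4- cells), and Myh1 was at least 9.11-fold lower in Sdc4+ cells. Myh1 was above background on 0 of the 3 Sdc4+ arrays and passed the filter through the 3 Sdc4- arrays, so it had to differ. The 5 slow fibre markers summed to 2.52 to 3.54, 1.80 to 3.14 and 2.04, with a median difference of 0.07 over the 4 tested. Of these 4, 2 had a lower and 2 a higher mean in Sdc4+ cells. Atp2a2 was the brightest of the list on every array, with a log2 difference of 0.63 and overlapping groups (limma adjusted p = 0.532). The slow myosin Myh7 differed by -0.90, and its groups did not overlap (limma adjusted p = 0.607).

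Because Tnnt2, Actc1 and Tnnc1 are also heart genes, 9 cardiomyocyte markers were read. Myl7, Nkx2-5 and Gata4 exceeded background on 0 of the 7 arrays, and 4 of the 9 were tested, 3 of them with a lower mean in Sdc4+ cells. Of these 4, Myl4, Nppa and Tnni3 were well above background on all 7 arrays and Nppb on 6. Nppa had the higher mean in Sdc4+ cells (log2 difference 0.65, limma adjusted p = 0.571). Nppb differed by -0.21 and Tnni3 by -0.34, and the groups overlapped for Nppa, Nppb and Tnni3. The list summed to 2.15 to 2.82 on the Sdc4+ arrays, 4.43 to 23.2 on the Sdc4- arrays and 2.42 in Cspg4+ cells. Myl4, an atrial light chain that embryonic skeletal muscle also makes, made up most of the sum on every array, so the sums largely follow this gene. It reached a log2 level of 4.51 in CD1 Sdc4- cells and differed by -1.97 without overlap (limma adjusted p = 0.502). Of 6 smooth muscle markers Myh11, Cnn1 and Actg2 were above background on 0 of the 7 arrays. Tagln, Acta2 and Smtn were well above background on all 7, with log2 differences of 0.04, -0.52 and -0.14 and overlapping groups. The sums overlapped (10.96 to 19.2, 15.3 to 18.9 and 18.5), and Smtn was the brightest of the list on every array. The satellite cell list, which holds Sdc4 itself, summed to 21.3 to 90.7, 16.9 to 49.4 and 46.9, and its other 7 genes alone to 7.45 to 12.8, 6.11 to 13.2 and 4.51. The keratinocyte list summed to 4.25 to 4.75, 4.66 to 6.73 and 5.09, and the macrophage list to 8.84 to 13.9, 4.89 to 9.39 and 6.70. The 6 dermal fibroblast genes were above background on every array, with a median difference of -0.305 (the Col1a2 spot of the B195AP+ array was marked as an outlier and left out).

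**Figure D4:**
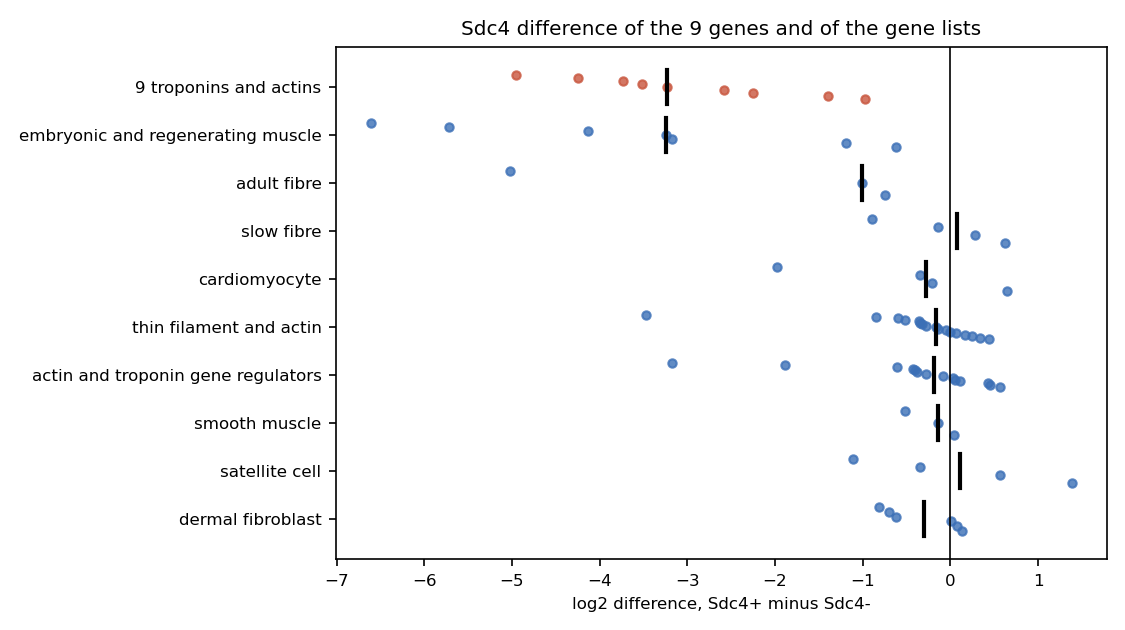
Log2 difference between Sdc4+ and Sdc4- cells (horizontal axis, limma estimate over 3 and 3 arrays) of each tested gene (points, spread vertically for legibility) of the 9 troponins and actins (red) and of the marker and pathway lists (blue), with bars at the list medians. The median of the 9 genes is -3.23, that of the embryonic and regenerating muscle list -3.24 and that of the thin filament and actin list -0.165. Vgll2, Myh1 and Mybph are drawn at measured values although no Sdc4+ spot of theirs was well above background.

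Among 2012 other genes with a range of at least 2 log2 units, the 8 whose levels over the 7 arrays correlated most with the mean profile of the 9 were muscle genes. They were Cox8b (r = 0.990), a muscle form of a cytochrome c oxidase subunit, Pdlim3 (0.982), a Z-line protein, Casq2 (0.980), which stores calcium in the sarcoplasmic reticulum, and Myh1 (0.972), a fast myosin heavy chain. They were followed by Myl1 (0.970), the fast essential light chain, Myh3 (0.962), Mybpc1 (0.957), the slow myosin-binding protein C, and Chrnd (0.957), a subunit of the muscle acetylcholine receptor. Cox8b, Pdlim3, Casq2 and Myh1 were above background on 0 of the 3 Sdc4+ arrays and passed the filter through the other arrays. The 8 were chosen for following the profile of the 9, which is itself lower on the Sdc4+ than on the Sdc4- arrays. Lower levels of the 8 in Sdc4+ cells therefore follow from the choice. With the floor their Sdc4 differences ran from -5.67 (Myh3) to -1.47 (Casq2). The correlations describe 7 arrays that share the same high CD1 Sdc4- array.

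Troponin I and T genes lie in pairs in the genome, and 3 such pairs could be followed. Tnni1 and Tnnt2 on chromosome 1 have Lad1 between them (probes 42.4 kb apart in mm9) and had r = 0.87 over the 7 arrays. Tnni2 and Tnnt3 on chromosome 7 have Lsp1 between them (68.2 kb) and had r = 0.96. Tnni3 and Tnnt1, also on chromosome 7 with 0 protein-coding genes between them (15.8 kb), had r = 0.15: Tnnt1 was apart between the Sdc4 groups and Tnni3 was not. Gene order was taken from the RefSeq gene table, and the values describe 7 arrays.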

How the data were processed

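RNA of 7 populations was hybridised to 1 array each. The deposited scanner files hold fluorescence intensity per spot from Agilent Feature Extraction 11.5.1.1, background-subtracted and not normalized between arrays, per the file headers, with a flag for spots well above background. The headers place probes in mm9. A deposited table of the whole series gives log2 values, which the submitters' processing notes connect with lumi (its version and centring are not given in the sources used here), and it served as an alternative only. The labels name biotin, while the files hold 1 green channel.

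The log2 of the processed intensity was taken and the array's 75th percentile subtracted from it. Control spots and spots marked as outliers (137 to 689 per array) were left out, spots of a probe were averaged, and probes well above background on at least 3 of 7 arrays were kept. A gene was its probe with the highest mean. Of 55681 probes, 27656 were named by accession through RefSeq's gene table and the rest kept the file's name. limma 3.58.1 (R 4.3.3) was fitted on 19761 genes with 3 group means and no covariate (4 residual degrees of freedom), with Benjamini-Hochberg adjustment. The labels name no separate samples beyond these arrays, so p-values reflect how arrays of different lines scatter. Isoform pairs were tested by exact permutation (Python 3.11.15, SciPy 1.17.1). The scripts were tested on simulated data. Alternatives were other scalings, normexp correction (offset 50), filters, probe choice, the line as a block and leaving out arrays, and, chosen after seeing the data, dim spots raised to the array's lowest signal well above background.

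The members, lists, named-gene rule and streaked region were chosen with earlier results of these data known. The rule named all 9 members, up to 6 members of the thin filament list by size of difference, and the 8 genes most alike in profile. Further list members were named after their values were seen.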

Additional observations from a re-analysis of the deposited data

How the results depend on the processing

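Under 20 settings the 176 differences of single members between Sdc4+ and Sdc4- cells were all below 0, with limma adjusted p between 0.101 and 0.951, so 0 passed 0.05 in any of them. Of the alternatives, normexp correction moved the 3 Sdc4 medians most: -1.58 between the groups, -2.87 in CD1 and -1.12 in the Cspg4 line. The medians of the 2 Cspg4+ comparisons moved more with median scaling. The count of genes past an adjusted p of 0.05 was 0 in most settings, 1 with each probe fitted by itself and 3 with the line as a random block (Ifitm10, Fcgr3 and Tchhl1, named after their values were seen). Actc1 minus Acta1 reversed to 0.12 without both CD1 arrays. Leaving out 1 array at a time gave a median of the 9 between -3.91 (without B195AP+ Sdc4-) and -2.33 (without CD1 Sdc4-), and a count of 0 each time. For the pairs it gave 0.39 to 1.47 for Tnnt1 minus Tnnt3, -2.78 to -1.47 for Tnnt2 minus Tnnt3, 0.43 to 0.92 for Tnni1 minus Tnni2, 2.20 to 3.03 for Tnnc1 minus Tnnc2 and -2.25 to -0.17 for Actc1 minus Acta1. The extremes of Tnnt1 minus Tnnt3 came without CD1 Sdc4- and without B195AP+ Sdc4-, the lowest Tnni1 minus Tnni2 without Myf5SOR+ Sdc4+, and those of Actc1 minus Acta1 without Cspg4- Sdc4+ and without CD1 Sdc4+. Without both CD1 arrays Tnnc1 was at -0.56, Tnni1 at -1.50, Tnnt1 at -0.79 and Tnnt3 at -1.21. The cause of these shifts was not tested. The replicate numbers are 1 for every sample and pair nothing, so the line served as the block: fixed, it left 1 residual degree of freedom and called 0 genes with a median of -3.33 for the 9. Spots near background limit the lower end: on the Sdc4+ arrays Tnnt2, Actc1, Acta1 and Tnni1 were measured on 1 to 2 of 3 arrays, so their differences there rest partly on signal at background. With dim spots at the floor, an alternative chosen after seeing the data, Tnnt2 was at -3.25, Actc1 at -4.37, Acta1 at -3.45 and Tnnt2 minus Tnnt3 at -0.999.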
